A study of Homo sapiens with 12 samples.

Results

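The 4 libraries described here are the monoculture libraries of the series, 4 of its 12, chosen from the labels as cancer tissue grown alone. Each holds RNA of GFP-MDA-MB-231 tissue, a human breast cancer line carrying green fluorescent protein, that was embedded in fibrin gel, cultured under flow in the AngioPlate and taken 5 days after the cells were seeded. The series has 2 further conditions, each with 4 libraries, in which the cancer tissue shared the device with hepatic or cardiac tissue, and no value of those libraries is used here. All 4 libraries come from 1 cell line, and the labels name no gene deletion and no drug. The labels name them biological replicates and do not tell whether they stem from separate seedings or plates, so the spread given here is that between these libraries. The question was what this tissue expresses without a partner tissue, as absolute levels and with no comparison between conditions.

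MDA-MB-231 is known as a triple-negative line, meaning that it lacks the estrogen and progesterone receptors and has no amplification of ERBB2 (HER2), and as mesenchymal-like, meaning that it has lost E-cadherin junctions and carries a vimentin cytoskeleton. Epithelial-mesenchymal transition (EMT) is the shift between these states. It is driven by transcription factors of the ZEB, SNAIL and TWIST families, which bind E-box sequences in the promoters of epithelial genes. Fibrin, the gel used here, is the clot protein that plasmin dissolves, and plasmin is made by the urokinase system described below.

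Deposited counts totalled 35042363 to 42047064 per library, of which 93.4 ± 0.289% fell on nuclear protein-coding genes and 5.06 ± 0.279% on the mitochondrial genome. Values after ± are the SD over the 4 libraries (n = 4) throughout. Levels are given as TPM (transcripts per 1000000), that is counts divided by the gene's exon length and scaled to the same sum in each library, so that genes can be compared with each other, or as CPM (counts per 1000000), which carry no length correction. A gene at 0 counts in a library can stand at up to 0.0714 to 0.0856 CPM there, the level of 3 counts, a limit that covers counting error alone. A gene was called detected at 1 TPM or more in every one of the 4 libraries. By that rule 11773 of 19951 protein-coding genes were detected, which is 59% and is the background for every list below. The median protein-coding gene stood at 6.06 TPM, the median detected gene at 27.1 TPM, and 3737 genes had 0 counts in all 4 libraries. Over the 42 gene lists used here, 473 of 780 members were detected (60.6%) and 105 had 0 counts. The median coefficient of variation of a detected gene over the libraries was 7.597%. Replicates 2 and 3 stood at opposite ends for glycolysis genes, of which 15 of 18 were highest in replicate 2 and 14 of 18 lowest in replicate 3. The share of all detected genes that were highest or lowest in a given library is not given here. Such counts therefore describe their own list, and a shift of the whole library was not tested.

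The 5 markers of the label were all detected. LGALS1 (galectin-1, a secreted lectin abundant in mesenchymal cells) at chr22:37675608-37679806 stood at 1912, 2015, 1531 and 1525 TPM in replicates 1 to 4, a mean of 1746 ± 255. CAV1 (caveolin-1, the coat protein of caveolae) at chr7:116524785-116561184 stood at 709, 671, 649 and 622 TPM (663 ± 36.4), and MSN (moesin, which links actin to the membrane) at chrX:65588377-65741931 stood at 605, 629, 551 and 622 TPM (601 ± 35.4). Caveolae are small pits of the plasma membrane. VIM (vimentin, the intermediate filament of mesenchymal cells) at chr10:17228259-17237593 stood at 588, 632, 467 and 497 TPM (546 ± 77.2). CD44 (the hyaluronan receptor) at chr11:35138870-35232402 had the narrowest spread, 141, 138, 141 and 142 TPM (141 ± 1.695). LGALS1, CAV1 and VIM were each higher in replicates 1 and 2 than in replicates 3 and 4, while MSN and CD44 were not. This split was seen in the values, and the share of all detected genes that show it is not given here. Ordered by TPM, LGALS1 lay above CAV1 in every library and CD44 below VIM in every library, while the ranges of CAV1 and MSN, and of MSN and VIM, overlapped. Of the exon bases of VIM, 24.4% also belong to a gene on the other strand, and whether the counting used strand is not given, so the level of VIM is uncertain to that extent.

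Cytoskeletal, calcium-binding and translation genes were the most abundant nuclear transcripts per length. TMSB10 (thymosin beta-10, which binds actin monomers) led with 6482, 7186, 6047 and 6049 TPM (6441 ± 537), and EEF1A1 (the elongation factor that brings tRNA to the ribosome) followed with 6729, 6762, 5982 and 5959 TPM (6358 ± 448), ranges that overlapped. ACTB (beta-actin) stood at 4977 ± 121 TPM and S100A6 (a calcium-binding protein) at 4951 ± 569 TPM. IGFBP4, a secreted protein that binds insulin-like growth factors, came next at 4891, 4335, 5121 and 4766 TPM (4778 ± 330.2). TMSB4X (thymosin beta-4) at 4215 ± 179 TPM, FTL (the light chain of ferritin, the iron store) at 3673 ± 195 TPM, and HSP90AB1 (a chaperone) at 2596 ± 81.4 TPM followed. The 20 also held GAPDH, ACTG1, ENO1, PSAP, YBX1 and the ribosomal protein genes RPL8, RPS12, RPL41, RPS18 and RPS2, between 1828 and 2269 TPM. With the longest transcript RPL8 stood at 3414 TPM. Together the 20 took 4.22 ± 0.117% of a library's counts. Genes with many processed pseudogenes, such as EEF1A1, GAPDH and the ribosomal protein genes, are uncertain, since how multi-mapping reads were counted is not given.

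**Figure D1:**
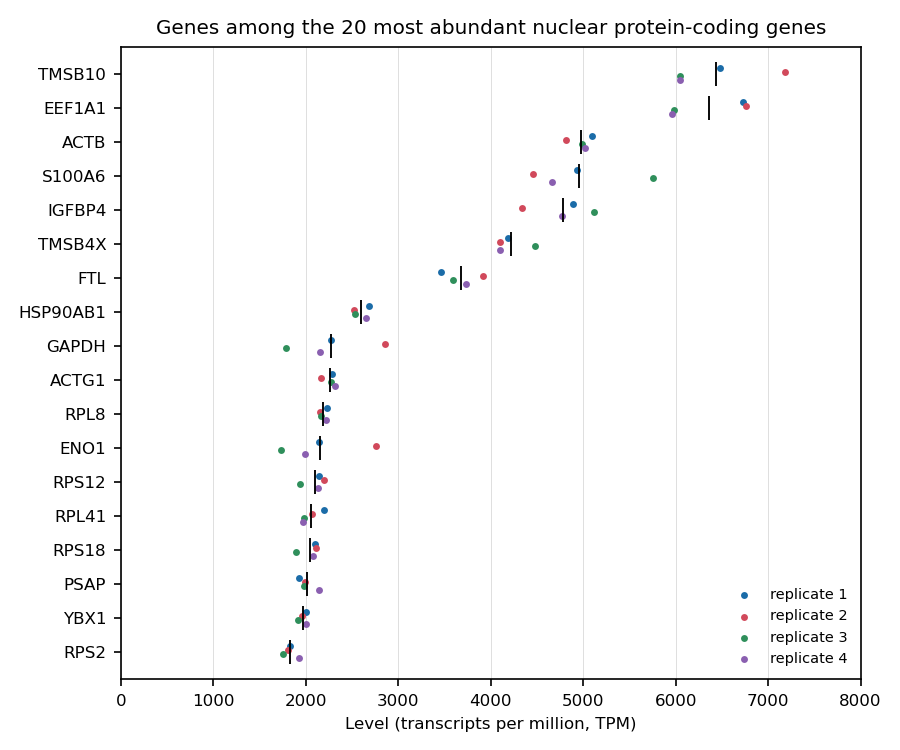
Level in TPM (linear axis) of the genes named above from the 20 most abundant nuclear protein-coding genes, in each of the 4 monoculture libraries. Dots are libraries coloured by replicate and black ticks are means. GAPDH and ENO1 have their highest dot in replicate 2 (2855 and 2755 TPM) and their lowest in replicate 3 (1789 and 1734 TPM).

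Without the length correction the order changed, and 9 of the 20 genes were in both lists. By CPM the first was EEF1A1 at 9984 ± 654 CPM and the second FN1 (fibronectin, a matrix protein with a long transcript) at 7535 ± 1338 CPM, followed by ACTB at 4625 ± 99.3 CPM. PKM (pyruvate kinase), FLNA (filamin A, an actin crosslinker), ENO1, AHNAK (a giant scaffold protein), PLEC (plectin, which ties filaments together) and IGFBP4 were also among the first 10 by CPM. Of the 13 protein-coding genes of the mitochondrial genome, MT-CO1 (a cytochrome c oxidase subunit) was highest at 33802 ± 1828 TPM and MT-ATP8 lowest at 304 ± 18.7 TPM. MT-ATP8 shares 22.2% of its bases with MT-ATP6.

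Genes of the mesenchymal cytoskeleton, membrane and adhesion were detected in 23 of 25 cases, with a list median of 472 TPM. Beyond the markers, ANXA2 (annexin A2, a membrane-binding protein) stood at 1144 ± 137 TPM, FLNA at 1086 ± 40.6 TPM, S100A4 (a calcium-binding protein linked to motility) at 1057 ± 211 TPM, TAGLN2 (transgelin-2) at 927 ± 45.8 TPM and ANXA1 at 706 ± 33.4 TPM. With the longest transcript as gene length, in place of all annotated exons, ANXA2 stood at 2152 and ANXA1 at 1096 TPM. CAVIN1, which with CAV1 builds caveolae, stood at 472 ± 6.61 TPM. Several classical mesenchymal genes were low or below detection. CDH2 (N-cadherin) had 19 counts in all 4 libraries together (0.0969 TPM), SPARC (osteonectin) 0.484 TPM, ACTA2 (smooth muscle actin) 2.04 TPM (3.38 with the longest transcript), and CDH11 (cadherin-11) 4.09, 5.998, 6.21 and 9.23 TPM. CDH2 and SPARC were the 2 members not detected. Of the wider list of actin, myosin and tubulin genes 34 of 35 were detected, 29 of them at 100 TPM or more, and the exception was TUBB3 (neuronal beta-tubulin) at 0.651 TPM, of whose exon bases 35.8% also belong to another gene.

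Among the transcription factors of EMT, 5 of 10 were detected, and the list median was 2.05 TPM against 6.06 TPM for all protein-coding genes. SNAI2 (SLUG) stood at 31.6, 35.9, 39.4 and 31.3 TPM (34.5 ± 3.83) and ZEB1 at 33.5, 33.4, 30.4 and 34.5 TPM (32.9 ± 1.76), levels whose ranges overlapped. FOXC1, a forkhead factor of basal-like tumours, stood at 16.8 ± 1.33 TPM, SNAI1 (SNAIL) at 7.51, 5.9, 5.58 and 4.89 TPM and ZEB2 at 3.59 ± 0.518 TPM (7.05 with the longest transcript). TWIST1, TWIST2 and TCF4 had 0 counts in every library, PRRX1 stood at 0.512 TPM and FOXC2 had 2 counts in all. Of the 3 families named above, members of the ZEB and SNAIL families were thus present and neither TWIST gene had a count.

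Epithelial genes were split between detected and near 0. CDH1 (E-cadherin, the core of adherens junctions) at chr16:68737225-68835548 had 7, 13, 3 and 21 counts in replicates 1 to 4, that is 0.123, 0.205, 0.0432 and 0.369 TPM. All 4 libraries lay below 1 TPM. The regulators GRHL2 (9 counts), OVOL1 (0 counts) and OVOL2 (0.467 TPM), which maintain the epithelial state, RAB25 (a small GTPase of polarized transport, 0 counts), and PKP1 (plakophilin-1, 4 counts) were also not detected. CLDN3, a tight junction claudin, was listed at 0, 0.919, 0.209 and 0.851 TPM. Of the 30 epithelial genes 19 were detected, a share near the 59% of all protein-coding genes, and the list median of 3.25 TPM lay below the 6.06 TPM of all protein-coding genes.

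Desmosome and junction genes were among the highest of the detected epithelial members. DSP (desmoplakin, which anchors keratin to desmosomes) stood at 120.2, 116, 99.3 and 106 TPM (110.3 ± 9.52). CLDN4 at 84.2 ± 6.49 TPM, PKP3 (plakophilin-3) at 84.01 ± 4.06 TPM, JUP (plakoglobin) at 74.03 ± 2.53 TPM and TJP1 (ZO-1) at 46.8 ± 0.328 TPM followed. CLDN7 stood at 16.1 ± 2.22 TPM and EPCAM (the epithelial adhesion molecule) at 11.99, 10.8, 12.98 and 14.2 TPM (12.5 ± 1.43). The splicing factors ESRP1 and ESRP2, which set epithelial exon choice, were at 2.12 and 2.41 TPM, and CRB3 (a polarity protein) at 0.952, 1.47, 1.56 and 1.498 TPM, below the threshold in replicate 1. In each library the level of ZEB1 was 93.5 to 705 times that of CDH1, a range set mostly by the few counts of CDH1.

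**Figure D2:**
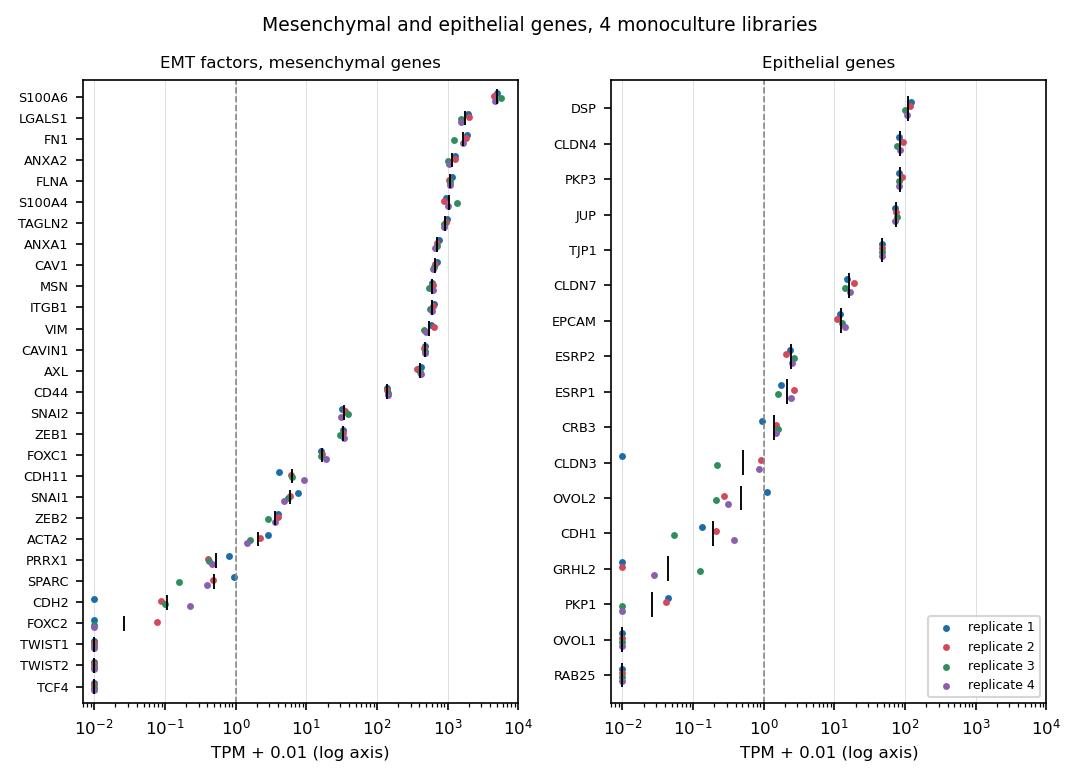
Level of the described EMT factors and mesenchymal genes (left) and epithelial genes (right) in the 4 monoculture libraries, as TPM + 0.01 on a log axis. Dots are libraries coloured by replicate, black ticks are means of 4 libraries, and the dashed line is the detection threshold of 1 TPM. CDH1 lies left of the line in every library while DSP and CLDN4 lie near 100 TPM.

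Since the ZEB and SNAIL factors bind E-boxes, the promoters of the epithelial genes are shown for CLDN7 and CRB3, with the most matches, and for DSP, the member of highest level among those with a promoter entry. RefSeq promoters on GRCh38.p14, from 250 bases before to 50 after the gene's start, were found for 567 of the 780 members and for 17 of the 30 epithelial genes, and the promoter of CDH1 was not analysed here. The motif searched was CAGGTG on both strands (CACCTG on the other strand). Capitals mark its matches in CLDN7 at chr17:7262429-7262728 (minus strand), in CRB3 at chr19:6464021-6464320 (plus strand) and in DSP at chr6:7541421-7541720 (plus strand), all written 5′ to 3′ along the gene.
CLDN7: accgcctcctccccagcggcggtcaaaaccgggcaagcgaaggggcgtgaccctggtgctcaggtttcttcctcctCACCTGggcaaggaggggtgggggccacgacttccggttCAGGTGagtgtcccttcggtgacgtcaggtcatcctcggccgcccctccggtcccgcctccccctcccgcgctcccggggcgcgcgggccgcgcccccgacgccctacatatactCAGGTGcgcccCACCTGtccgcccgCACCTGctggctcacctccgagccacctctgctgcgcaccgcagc
CRB3: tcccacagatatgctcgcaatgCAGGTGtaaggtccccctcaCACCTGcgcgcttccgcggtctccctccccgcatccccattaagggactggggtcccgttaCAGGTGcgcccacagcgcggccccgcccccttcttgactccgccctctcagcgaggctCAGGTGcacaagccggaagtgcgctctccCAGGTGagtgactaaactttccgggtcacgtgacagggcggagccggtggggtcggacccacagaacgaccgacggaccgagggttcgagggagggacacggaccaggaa
DSP: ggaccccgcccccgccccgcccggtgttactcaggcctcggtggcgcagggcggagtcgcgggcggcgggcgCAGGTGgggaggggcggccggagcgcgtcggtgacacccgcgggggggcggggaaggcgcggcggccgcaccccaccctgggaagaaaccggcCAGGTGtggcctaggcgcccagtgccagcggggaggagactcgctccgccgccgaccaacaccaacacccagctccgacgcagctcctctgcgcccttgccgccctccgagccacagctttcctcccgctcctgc
CLDN7 and CRB3 each held 5 matches and DSP 2. Among the 17 epithelial promoters 9 held at least 1 match (52.9%), against 20.7% of all 27305 promoters. The share varied between lists, for instance 6 of 15 for hepatocyte markers (40%) and 1 of 23 for nuclear receptors (4.35%). The epithelial promoters also had a higher median GC content, 66.7% against 58%, and its part in the share of matches was not tested. Levels of genes with matches ran from 110.3 TPM for DSP over 16.1 TPM for CLDN7 and 1.37 TPM for CRB3 to 0 counts for RAB25, whose promoter held 2 matches. A match is a description of the letters and not of binding.

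Keratins, the intermediate filaments of epithelia, were present as the pairs of simple epithelia and largely missing as those of stratified epithelia. KRT19 at chr17:41523617-41528308 stood at 552, 587, 404 and 488 TPM (508 ± 80.2), KRT8 at 349, 306, 389.8 and 350.2 TPM (349 ± 34.4), KRT7 at 248, 234, 299.6 and 270.5 TPM (263 ± 28.7) and KRT18, the partner of KRT8, at 176, 183, 216 and 186 TPM (190.5 ± 17.8). The ranges of neighbours in this order did not overlap. KRT19 was lowest in replicate 3, where KRT8, KRT7 and KRT18 were highest. KRT20 (5 counts) and KRT23 (0 counts) were the 2 of 6 simple keratins not detected, and the list median was 227 TPM. By the longest transcript as gene length KRT8 stood at 630.5 and KRT7 at 462 TPM, against 641 for KRT19, so that the distance between KRT19 and KRT8 depends on the length used.

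By all annotated exons VIM and KRT19 stood at nearly the same level, with a ratio of 1.07, 1.08, 1.15 and 1.02 in replicates 1 to 4. With the longest transcript VIM stood at 794 and KRT19 at 641 TPM, so how near they lie depends on the length used. Vimentin and simple keratins were thus both abundant in the same tissue, and bulk RNA cannot tell whether they were in the same cells, nor fewer cells of a type from less RNA per cell. Of the other filament genes PLEC stood at 627 ± 31.5 TPM, LMNA (lamin A/C of the nuclear envelope) at 487 ± 45.8 TPM (801 with the longest transcript), LMNB2 at 312 ± 21.96 TPM, LMNB1 at 67.6 ± 5.49 TPM, NES (nestin) at 20.8 ± 1.66 TPM and SYNM (synemin) at 15.9 ± 1.18 TPM. DES (desmin of muscle) stood at 1.72 TPM, GFAP (of astrocytes) at 0.637 TPM, and the neuronal genes INA, NEFL and NEFM had 0 counts.

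Of the 21 keratins of stratified epithelia, 4 were detected, with a list median of 0.0327 TPM. KRT80 stood at 89.9 ± 10.3 TPM and KRT10 at 63.6 ± 2.21 TPM, KRT6A at 5.19 ± 1.08 TPM and KRT15 at 2.83 TPM. The basal-layer pair KRT5 (0.353, 0.318, 0.807 and 0.303 TPM) and KRT14 (0, 0.128, 0.623 and 0.0475 TPM) and KRT17 (0.346, 0.592, 0.511 and 0.485 TPM), which define basal-like tumours, were below 1 TPM in every library. Among the hair and nail keratins 2 of 13 were detected, KRT81 at 165, 129, 219 and 187 TPM (175 ± 37.97) and KRT86 at 9.34 ± 1.38 TPM. KRT81 was highest in replicate 3 and lowest in replicate 2. The keratin 6 genes and KRT81, KRT83 and KRT86 are close copies of each other, and their counts are uncertain.

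**Figure D3:**
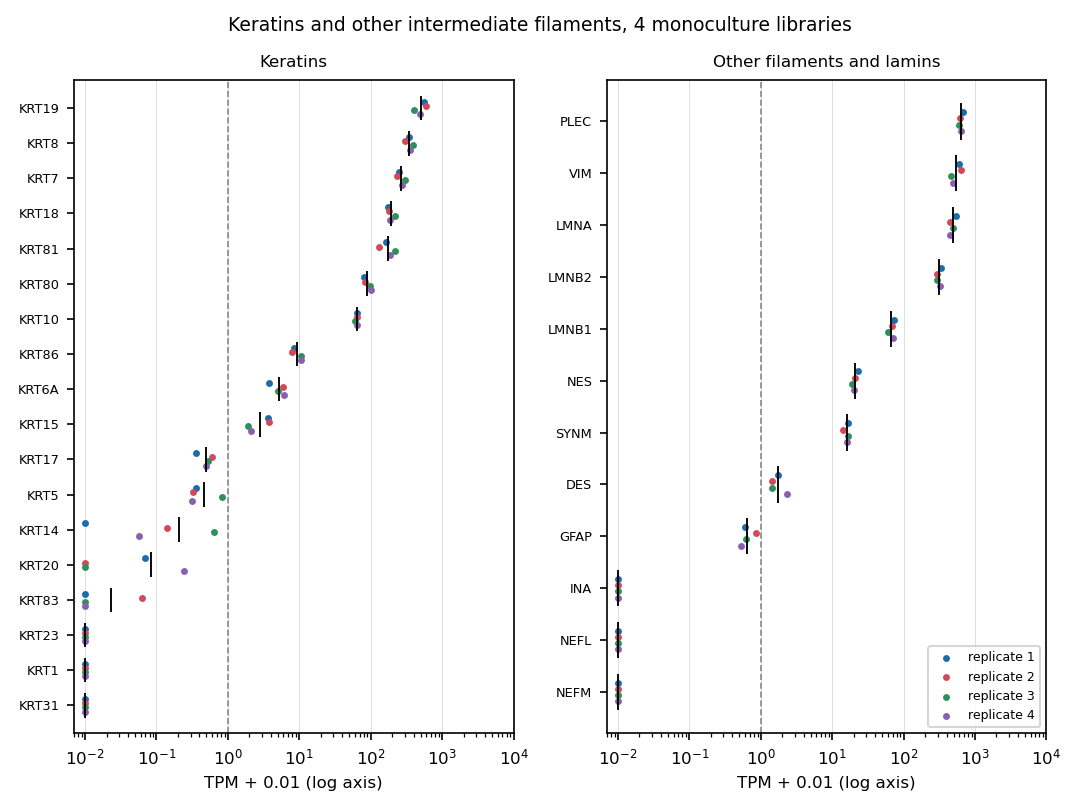
Level of the described keratins (left) and other intermediate filament genes and lamins (right) in the 4 monoculture libraries, as TPM + 0.01 on a log axis. Dots are libraries, black ticks are means and the dashed line marks 1 TPM. KRT19, KRT8, KRT7 and KRT18 lie at the top with KRT81, and genes with 0 counts, such as KRT1 and KRT31, lie at 0.01.

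Luminal genes, those of the milk-duct lining and of the estrogen response, were detected in 12 of 19 cases, with a list median of 5.26 TPM. Besides the keratins these were XBP1 (a secretory pathway factor) at 209.6 ± 23.8 TPM, MLPH (melanophilin) at 86.5 ± 2.98 TPM, SPDEF (an ETS factor of luminal cells) at 71.9 ± 7.56 TPM and AGR2 (a disulfide isomerase of secretory cells) at 67.8, 71.1, 40.9 and 49.5 TPM (57.3 ± 14.5). TFF3 and TFF1, trefoil peptides, stood at 23.8 ± 2.15 and 7.07 ± 1.17 TPM, while GATA3 and FOXA1, the luminal master factors, stood at 5.26 ± 0.909 and 3.52 ± 0.0542 TPM. Basal and myoepithelial genes were detected in 7 of 18 cases, with a list median of 0.793 TPM. Among them were ITGB4 (an integrin subunit of hemidesmosomes) at 143 ± 22.6 TPM and EGFR at 72.3 ± 3.61 TPM. TP63, the basal-cell factor, stood at 1.01 TPM, SOX10 had 3 counts and CNN1 (calponin of myoepithelium) 9 counts.

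The hormone receptors that define the triple-negative class were near 0. ESR1 (estrogen receptor alpha) at chr6:151656691-152129619 had 1, 8, 8 and 4 counts in replicates 1 to 4 (0.0367 TPM), and PGR (progesterone receptor) at chr11:101029624-101130524 had 0, 2, 4 and 2 counts. ESR2 (estrogen receptor beta) had 104 counts in all, 0.275 TPM. Of the 25 nuclear receptors 18 were detected, however, with a list median of 16.7 TPM. The highest were NR1H2 (LXR beta, an oxysterol receptor) at 109.5 ± 1.84 TPM, ESRRA (an orphan receptor related to ESR1) at 107 ± 9.55 TPM and RXRB (a retinoid X partner) at 96.3 ± 3.06 TPM, with overlapping ranges. PPARG (a fatty acid receptor) stood at 70.1, 60.2, 72.05 and 71.3 TPM (68.4 ± 5.55), 115 with the longest transcript. NR3C1 (the glucocorticoid receptor) stood at 58.5, 62.5, 54.7 and 54.4 TPM (57.5 ± 3.81), NR2F2 (COUP-TFII) at 57.4 ± 2.72 TPM, VDR (the vitamin D receptor) at 6.78 ± 0.698 TPM and RARA (retinoic acid receptor alpha) at 15.7, 22.7, 12.7 and 15.5 TPM.

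Of the 39 receptor tyrosine kinases 21 were detected, with a list median of 1.82 TPM, led by AXL (the GAS6 receptor) at 422, 375, 411 and 417 TPM (406 ± 21.5). EPHA2 (an ephrin receptor) stood at 312, 294, 370.4 and 333 TPM (327 ± 32.96) and MET (the receptor of hepatocyte growth factor) at 118 ± 6.04 TPM. EGFR at chr7:55019021-55211628 stood at 73.2, 67.8, 76.5 and 71.5 TPM (72.3 ± 3.61). These neighbours in the order did not overlap. The ratio of AXL to EGFR was 5.37 to 5.82 in the 4 libraries. ERBB2 (HER2) at chr17:39687914-39730426 was detected at a moderate level of 25.6, 22.9, 26.1 and 25.7 TPM (25.1 ± 1.48, and 39.4 with the longest transcript), and the ratio of EGFR to ERBB2 was 2.79 to 2.97 per library. With the longest transcript AXL stood at 332 and EGFR at 69.3 TPM, so both ratios depend on the length used. ERBB3 stood at 1.3 and ERBB4 at 0.265 TPM. EPHB4, IGF1R, RYK, MST1R (RON) and DDR1 lay between 32.4 and 42.7 TPM, FGFR1 at 26.5 ± 1.46 TPM and INSR (the insulin receptor) at 15.7 ± 1.02 TPM. FGFR2 had 0 counts, NTRK3 had 1 count, KIT (the stem cell factor receptor) 20 counts and PDGFRA 16 counts. Of the other members of the AXL family, MERTK stood at 18.4 ± 2.79 TPM and TYRO3 at 9.96 ± 0.574 TPM, and their ligand GAS6 at 85.04 ± 10.9 TPM. HGF, the ligand of MET, had 0 counts. With the longest transcript DDR1 stood at 53.5, FGFR1 at 44.4 and GAS6 at 145 TPM.

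**Figure D4:**
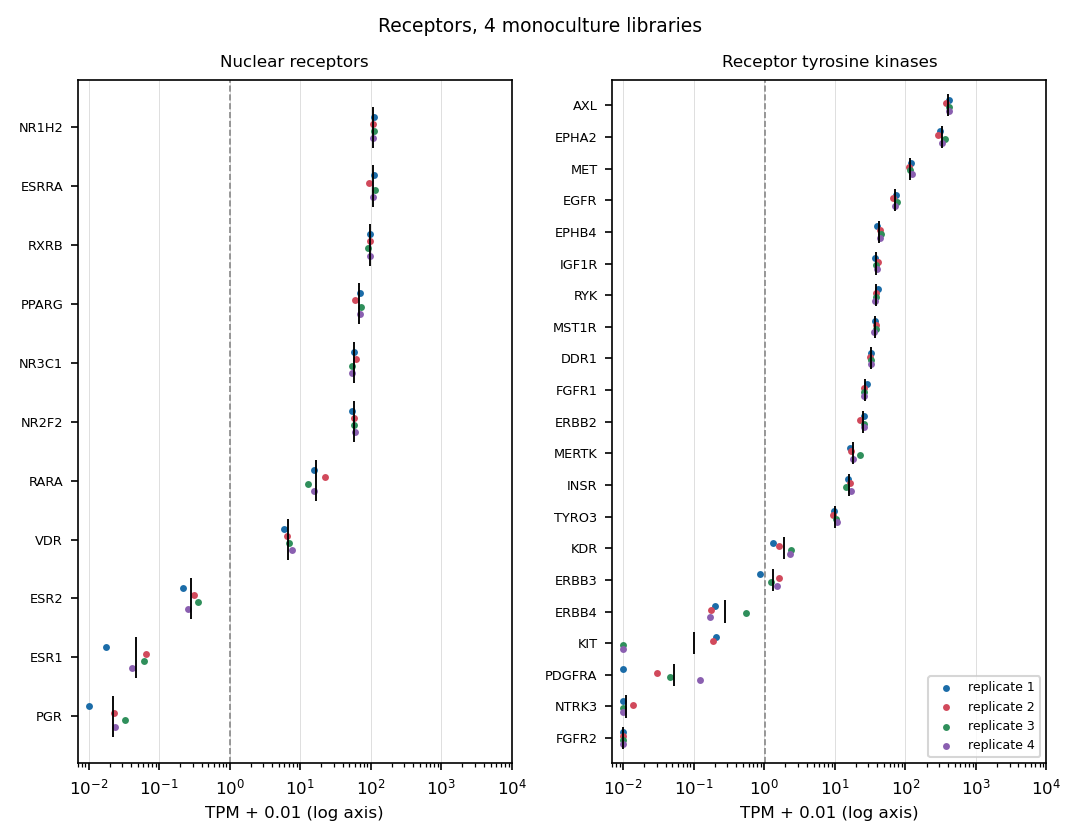
Level of the described nuclear receptors (left) and receptor tyrosine kinases (right) in the 4 monoculture libraries, as TPM + 0.01 on a log axis. Dots are libraries, black ticks are means and the dashed line marks 1 TPM. ESR1 and PGR lie at the bottom of the left panel and AXL and EPHA2 at the top of the right panel.

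Receptors of the TGF-beta family were detected in 11 of 12 cases, with a list median of 17.9 TPM. TGFBR2, the ligand-binding receptor of TGF-beta, at chr3:30606502-30694142 stood at 640.3, 766, 588 and 666 TPM (665 ± 74.4) and its signalling partner TGFBR1 at 77.3, 73.9, 71.9 and 63.8 TPM (71.7 ± 5.72). ACVR1, BMPR2 and BMPR1A, which bind bone morphogenetic proteins, stood at 47.7 ± 3.49, 36.1 ± 1.85 and 22.4 ± 1.26 TPM. Among the ligands, TGFB1 stood at 91.5, 114, 109 and 103 TPM (104 ± 9.66), TGFB2 at 29.7 ± 6.17 TPM, TGFB3 at 5.78 ± 0.712 TPM and BMP4 at 116, 138, 202 and 134 TPM (148 ± 37.7), highest in replicate 3. The targets ID1 and ID3, inhibitors of DNA binding that BMP signalling induces, stood at 529.8, 358, 608 and 532 and 59.3, 34.6, 78.2 and 71.1 TPM, both lowest in replicate 2 and highest in replicate 3.

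Cytokine and death receptors were detected in 24 of 26 cases, with a list median of 50.8 TPM. TNFRSF1A (the main receptor of TNF) stood at 327 ± 24.6 TPM, TNFRSF21 (death receptor 6) at 298 ± 27.8 TPM, TNFRSF12A (the TWEAK receptor) at 209 ± 26.9 TPM and TNFRSF10B (a TRAIL receptor) at 132 ± 6.83 TPM. OSMR, IL6ST (gp130) and LIFR, the signalling chains of the interleukin-6 family, stood at 178 ± 24.2, 149 ± 13.2 and 28.6 ± 1.44 TPM and IL6R at 14.3 ± 0.8203 TPM. IFNAR2 and IL10RB were the members not detected, but 83.3% and 38.1% of their exon bases also belong to other genes, so their levels are uncertain.

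Of 28 seven-pass receptors 18 were detected, with a list median of 6.63 TPM. F2RL1 (PAR2, activated by proteases) stood at 421, 364, 369 and 308 TPM (365 ± 46.3) and F2R (PAR1, the thrombin receptor) at 52.7 ± 5.2 TPM. ADGRE5 (CD97), ADORA2B (an adenosine receptor), FZD6 (a WNT receptor) and GPRC5A stood at 153 ± 7.801, 120.1 ± 9.87, 118 ± 9.69 and 73.7 ± 9.02 TPM. CXCR4, the receptor of the homing chemokine CXCL12, was detected at 1.27, 1.58, 2.24 and 1.95 TPM (158 counts in all), and ACKR3, the other receptor of CXCL12, stood at 1.26 TPM. CXCL12 itself and CXCR2 had 0 counts.

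Integrins, the matrix receptors made of an alpha and a beta chain, were detected in 14 of 24 cases, with a list median of 5.17 TPM. ITGA3 at 684, 627, 609 and 626 TPM (637 ± 32.3) and ITGB1 at 633, 612, 557 and 598 TPM (600.1 ± 32.2), which together bind laminin, had overlapping ranges. ITGA6 (a laminin-binding chain) stood at 232 ± 15.7 TPM, ITGA10 (a collagen-binding chain) at 228 ± 15.7 TPM, ITGA2 (collagen) at 179 ± 7.42 TPM, ITGAV (vitronectin and fibronectin) at 142 ± 8.27 TPM, ITGB5 at 135 ± 12.04 TPM and ITGA5 (fibronectin) at 99.7 ± 9.78 TPM. The leukocyte chains ITGAL, ITGAM and ITGA4 had 12, 19 and 24 counts in all, and ITGA8 had 0.

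Of 28 surface proteins used to type the line 24 were detected, with a list median of 67.6 TPM. BSG (basigin, CD147) stood at 1076, 1108, 1186 and 1211 TPM (1145 ± 63.6), NT5E (CD73, which makes adenosine) at 563, 581, 426 and 479.9 TPM (512 ± 72.7), and the tetraspanins CD63, CD151 and CD9 at 497 ± 24.5, 348 ± 10.2 and 253 ± 18.7 TPM. These 3 tetraspanins stood, by the longest transcript, at 798, 555 and 454 TPM. CD24, whose low level beside high CD44 is used to define stem-like breast cells, stood at 12.1, 15.3, 10.8 and 14.6 TPM (13.2 ± 2.11), and the ratio of CD44 to CD24 was 11.7, 9.05, 13.1 and 9.70 in replicates 1 to 4. CD274 (PD-L1) stood at 18.4, 15.6, 13 and 17.4 TPM (16.1 ± 2.39) and CD47, a signal against phagocytosis, at 60.7 ± 3.57 TPM. ALDH1A3 stood at 2.32 TPM, and ALDH1A1 and THY1 had 0 counts.

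Collagens were detected in 15 of 24 cases (list median 5.93 TPM). COL6A1 at chr21:45981737-46005050 stood at 660.5, 552, 658 and 605 TPM (619 ± 51.5), while its partners COL6A2 and COL6A3 stood at 112 ± 7.02 and 5.32 ± 0.682 TPM. The ratio of COL6A1 to COL6A3 was 95.3 to 153 per library. COL13A1 (a transmembrane collagen) stood at 130.5 ± 23.9 TPM and COL18A1 (the source of endostatin) at 101 ± 6.37 TPM. COL4A2 and COL4A1, which share a promoter region and assemble together, stood at 42.7 ± 4.66 and 21.6 ± 2.23 TPM, and at 95.3 and 36.2 TPM with the longest transcript. The 7 fibrillar collagen chains of the list differed widely. COL5A1 stood at 42.98, 48.8, 29.9 and 39.2 TPM (40.2 ± 7.92), a range that overlapped that of COL4A2, and COL27A1 at 7.29 ± 1.53 TPM. COL1A1 stood at 2.35 TPM, while COL1A2, COL5A2, COL3A1 and COL5A3 stood at 0.5399, 0.539, 0.05101 and 0.0225 TPM, below 1 TPM in every library.

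Laminin chains, the builders of basement membranes, were detected in 7 of 11 cases, with a list median of 90.3 TPM. LAMB3 stood at 332, 350.0, 284 and 316 TPM and LAMA3 at 18.6, 17.3, 14.4 and 15.7 TPM, both chains of laminin-332. LAMA5, LAMB2 and LAMC1, the chains of laminin-521, stood at 277 ± 17.8, 357 ± 6.801 and 174 ± 10.5 TPM. LAMA1, LAMA2, LAMA4 and LAMC3 were below 1 TPM on average.

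Of 36 other matrix proteins and crosslinkers 24 were detected, with a list median of 30.3 TPM. FN1 at chr2:215360440-215436172 stood at 1894, 1819, 1212 and 1676 TPM (1650.0 ± 306), lowest in replicate 3. CYR61 (CCN1) and CTGF (CCN2), matricellular proteins that YAP induces, stood at 597, 543, 757 and 636 and 245, 256, 303 and 324 TPM, and THBS1 (thrombospondin-1) at 132 ± 17.9 TPM. P4HA1, which hydroxylates collagen prolines, stood at 181, 322, 94.3 and 171 TPM, LOX, which crosslinks collagen, at 63.3, 154, 49.6 and 65.8 TPM, and PLOD2, which hydroxylates collagen lysines, at 105, 175, 90.9 and 114 TPM. All 3 were highest in replicate 2 and lowest in replicate 3. Over the list, 15 of the 24 detected members were lowest in replicate 3. The same held for 13 of 26 detected matrix proteases and inhibitors and for 2 of 21 detected receptor tyrosine kinases. The share over all detected genes is not given here, so whether the count is particular to matrix genes was not tested. SERPINH1 (the collagen chaperone HSP47) stood at 146 ± 6.64 TPM, TNC (tenascin-C) at 75.3 ± 9.06 TPM and LOXL2 at 102 ± 9.51 TPM. BGN (biglycan), VCAN (versican), NID1 (nidogen-1), ELN (elastin) and POSTN (periostin) were between 0 and 0.118 TPM.

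The urokinase system that acts on fibrin was detected as enzyme and receptor. PLAU (urokinase) stood at 516, 480.0, 439 and 485 TPM (480.1 ± 31.6) and its receptor PLAUR at 90.9, 82.6, 69.8 and 89.8 TPM (83.3 ± 9.73). The ratio of PLAU to PLAUR was 5.399 to 6.296 per library. PLAT (tissue plasminogen activator) stood at 98.1 ± 7.66 TPM. By the longest transcript PLAU stood at 401 and PLAUR at 173 TPM, so their ratio depends on the length used. Of the exon bases of PLAU, 31.1% also belong to a gene on the other strand.

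In all, 26 of 33 matrix proteases and inhibitors were detected, with a list median of 38.15 TPM. MMP14, the membrane collagenase, stood at 488, 473, 374 and 427 TPM (440.5 ± 50.95). MMP1, the secreted collagenase, at chr11:102789920-102798160 stood at 78.6, 86.9, 17.9 and 53.1 TPM (59.1 ± 30.99), and its value in replicate 3 was below those of the other 3 libraries. MMP10 stood at 8.62, 10.04, 2.17 and 3.45 TPM, also lowest in replicate 3. The gelatinases MMP9 (20 counts in all, 0.225 TPM) and MMP2 (12 counts) were not detected, nor were MMP3 and MMP7. TIMP1 and TIMP2, inhibitors of these enzymes, stood at 602 ± 50.5 and 222 ± 6.09 TPM. The lysosomal cathepsins CTSD, CTSZ, CTSL and CTSB stood at 644 ± 78.2, 615 ± 39.5, 286 ± 22.9 and 178 ± 11.4 TPM, and 52.7% of the exon bases of CTSD also belong to other genes.

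Chemokines were detected in 10 of 23 cases, with a list median of 0.318 TPM. CXCL1 stood at 42.9, 66.97, 53.1 and 76.9 TPM (59.96 ± 14.99), CXCL8 (interleukin-8) at 51.5, 49.6, 37.2 and 53.01 TPM (47.8 ± 7.21), CXCL2 at 35.01, 29, 25.7 and 33.2 TPM (30.7 ± 4.201) and CCL20 at 18.9, 26.5, 17.1 and 26.4 TPM (22.2 ± 4.91). The first 3 attract neutrophils and the last attracts dendritic and T cells. All 4 were lowest in replicate 3 except CXCL1, which was lowest in replicate 1. CXCL10 stood at 1.699 TPM, CCL5 at 0.318 TPM and CCL2, which draws monocytes, at 0.207 TPM. CXCL5, CXCL6, CXCL12, CCL3, CCL4 and CCL7 had 0 counts.

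CXCL8 is a textbook target of AP-1, the dimer of FOS and JUN proteins, so its promoter at chr4:73740319-73740618 (plus strand, RefSeq, GRCh38.p14) is shown. Capitals mark TGANTCA, the AP-1 motif, and TATAAA, each searched on both strands.
CXCL8: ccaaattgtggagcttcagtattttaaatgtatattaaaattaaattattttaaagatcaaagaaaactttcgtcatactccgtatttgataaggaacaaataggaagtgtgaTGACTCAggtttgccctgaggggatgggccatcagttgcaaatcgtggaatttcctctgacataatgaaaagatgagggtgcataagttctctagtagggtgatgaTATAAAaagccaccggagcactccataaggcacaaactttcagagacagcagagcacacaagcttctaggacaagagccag
The AP-1 match starts at -137 and the TATA match at -31, counted from the gene's start. An AP-1 match was in 7.91% and a TATA match in 12.1% of all promoters of the same length. Among chemokine promoters, 4 of 17 held the AP-1 match and 5 of 17 the TATA match. FOSL1 (FRA-1), the main FOS-family member here, stood at 308, 262, 279.7 and 266 TPM (279 ± 20.7), against 8.66, 9.22, 8.15 and 8.57 TPM for FOS. JUN, JUNB and JUND stood at 203 ± 27.5, 126 ± 13.6 and 153 ± 14.98 TPM.

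Interleukins and colony-stimulating factors were detected in 16 of 32 cases, with a list median of 1.54 TPM. CSF1, the macrophage growth factor, at chr1:109910242-109930992 stood at 239.8, 248, 416 and 356 TPM (315 ± 85.7), higher in replicates 3 and 4 than in replicates 1 and 2. LIF stood at 112, 106, 81.8 and 90.4 TPM (97.5 ± 13.8) and CLCF1, another ligand that signals through gp130, at 55.1 ± 4.89 TPM. CSF2 (GM-CSF) stood at 48.99, 44.98, 56.8 and 36.9 TPM (46.9 ± 8.27) and IL6 at chr7:22725884-22732002 at 15.2, 18.5, 13.3 and 15.9 TPM (15.8 ± 2.14). IL18 and TNFSF10 (TRAIL) stood at 22.2 ± 3.21 and 24.4 ± 3.63 TPM, IL1B at 3.71, 2.39, 3.13 and 4.48 TPM and IL11 at 1.83 TPM. TNF had 1 count in all 4 libraries, and IFNG, IFNB1, IL2, IL4, IL13, IL17A, IL33, OSM and TSLP had 0. MIF was listed at 0.615 TPM, but 62.0% of its exon bases also belong to other genes, so this value says little of its transcript.

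Growth factors were detected in 29 of 38 cases, with a list median of 16.8 TPM. DKK1, a secreted WNT antagonist, stood at 349.8, 332, 382 and 393 TPM (364 ± 28.4). The EGFR ligands AREG, TGFA, EREG and HBEGF stood at 239 ± 8.59, 72.8 ± 5.02, 63.2 ± 8.93 and 50.97 ± 5.81 TPM, and EGF at 2.83 TPM. VEGFA, which drives vessel growth, stood at 68.2, 108, 46.1 and 54.95 TPM, highest in replicate 2, with VEGFB at 101 ± 11.4 TPM and VEGFC, the lymphatic factor, at 53.3 ± 8.03 TPM. PDGFC stood at 101 ± 2.32 TPM, JAG1 (a NOTCH ligand) at 94.3 ± 9.24 TPM and FGF5 at 66.3 ± 6.49 TPM. IGF1, HGF and BMP7 had 0 counts, FGF2 had 6 counts and INHBA 44. The annotated exons of IGF1 overlap those of other genes by 82.4%, and so its 0 is uncertain.

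Genes known to be mutated or deleted in the line or in breast cancer were detected in 13 of 17 cases, with a list median of 14.7 TPM. CDKN2A, which encodes the cell cycle inhibitors p16 and p14ARF, at chr9:21967753-21995301, and its neighbours CDKN2B and MTAP had 0 counts in every library. BRAF, carried in mutant form by this line, stood at 7.11, 7.38, 6.63 and 6.74 TPM (6.96 ± 0.343), or 12.8 TPM by the longest transcript. Gene counts do not tell mutant from normal transcripts. CCND1 (cyclin D1) and MYC stood at 238 ± 23.9 and 228 ± 10.9 TPM with overlapping ranges, RB1 at 44 ± 1.64 TPM, BRCA1 at 14.7 ± 1.98 TPM and NF2, mutated in the line, at 8.09 ± 0.32 TPM. TERT (telomerase), the member besides those 3 that was not detected, stood at 0.965, 1.44, 1.29 and 1.11 TPM.

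Among transcription factors linked to aggressive breast lines 34 of 37 were detected, with a list median of 71.4 TPM. HMGA1, an architectural chromatin protein, led with 1369, 1335, 1188 and 1333 TPM (1306 ± 80.5), followed by ID1 (507 ± 106 TPM), ATF4 (of the stress response, 406 ± 16.96 TPM) and FOSL1. The ratio of FOSL1 to FOS was 28.4 to 35.5 per library. YAP1 and WWTR1 (TAZ), effectors of the Hippo pathway, stood at 163 ± 14.2 and 155 ± 11.5 TPM, and their DNA-binding partner TEAD1 at 93.3 ± 4.55 TPM. KLF4, SOX9, STAT3 and RELA (a subunit of NF-kappaB) stood at 109.9 ± 6.09, 104 ± 12.8, 96.3 ± 9.02 and 72.9 ± 3.605 TPM. SOX2, RUNX3 and SOX10 were not detected.

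All 20 proliferation genes were detected, with a list median of 90.5 TPM. CCNB1 (cyclin B1) stood at 298, 248, 272 and 261 TPM, MKI67 (Ki-67) at 96.4, 85.6, 77.7 and 97.2 TPM, PCNA (the replication clamp) at 266, 227, 276 and 261 TPM and TOP2A (topoisomerase II) at 267, 216, 209 and 228 TPM. Replicate 2 was the lowest library for 13 of the 20 genes and the highest for 0, and replicate 1 the highest for 11. Of the 34 detected actin, myosin and tubulin genes, 16 were lowest in replicate 2 and 16 highest in replicate 1. The share over all detected genes is not given here, so whether these counts are particular to either list was not tested. The summed level of the proliferation list ranged from 2211 TPM in replicate 2 to 2591 TPM in replicate 1.

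All 18 glycolysis genes were detected (list median 192 TPM). Here replicate 2 was the highest library for 15 and replicate 3 the lowest for 14, counts without a share over all detected genes beside them. GAPDH stood at 2274, 2855, 1789 and 2157 TPM (2269 ± 442), ENO1 (enolase) at 2141, 2755, 1734 and 1994 TPM (2156 ± 433), PGK1 (phosphoglycerate kinase) at 474, 895, 301 and 422 TPM (523 ± 258) and LDHA (lactate dehydrogenase) at 1179, 1778, 1004 and 1193 TPM (1288 ± 337). SLC2A1, the glucose transporter GLUT1, stood at 205, 347, 151 and 192 TPM. For each of these 5 genes replicates 1 and 4 lay between replicates 2 and 3. The summed level of the list was 10172, 13694, 8450.4 and 10005 TPM in replicates 1 to 4. Replicate 2 was also the highest and replicate 3 the lowest for VEGFA, P4HA1, LOX and PLOD2, and what moves with these genes was not tested. With the longest transcript PKM (1410.5 ± 102 TPM) stood at 3015, LDHA at 2490.5 and ENO1 at 3357 TPM. ALDOA was listed at 2.404 TPM, with 53.5% of its exon bases shared with other genes, so this value says little of its transcript.

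Class I antigen presentation genes were all detected, 9 of 9, with a list median of 318 TPM. HLA-B and HLA-C, classical presenting chains, stood at 768 ± 83.3 and 318 ± 20.3 TPM, and B2M, their light chain, at 707 ± 19.3 TPM (1345 with the longest transcript). Of the class II genes, which most epithelia express little, 7 of 9 were detected, with a list median of 14.5 TPM. CD74 (the invariant chain) at chr5:150401637-150412929 stood at 176, 209, 241 and 275 TPM (225 ± 42.2) and HLA-DRA at chr6:32439842-32445046 at 187, 202, 189 and 249 TPM (207 ± 29.1). HLA-DRB1 stood at 11.8 ± 0.963 TPM, CIITA, the class II master regulator, at 3.79, 3.27, 3.28 and 3.77 TPM, and HLA-DQA1 had 13 counts in all. HLA genes are highly variable and alike, so their counts depend on how multi-mapping reads were counted, which is not given.

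Most genes that mark other cell types were not detected. The share detected lay below the 59% of all protein-coding genes in each of the 11 lists, though for adipocyte genes, with 4 of 7 detected, it lay close to it. None of 10 secretory mammary genes was detected, and the caseins CSN1S1, CSN2 and CSN3 had 0 counts. None of 8 pluripotency genes was detected, with 0 counts of NANOG and 41 counts of POU5F1 (OCT4) in all. Of 23 cardiomyocyte genes 2 were detected, TCAP at 4.54, 2.39, 2.85 and 2.86 TPM and MB (myoglobin) at 2.56 TPM, while MYH6, MYH7, MYL7, MYBPC3 and PLN had 0 counts and TNNT2 (cardiac troponin T) 6. Of 21 hepatocyte genes 3 were detected, SERPINA1 (alpha-1 antitrypsin) at 32.7, 43.4, 58.1 and 46.95 TPM (45.3 ± 10.5), HP (haptoglobin) at 13.5, 15.5, 17.04 and 28.5 TPM and CPS1 at 6.96, 6.2, 5.95 and 7.78 TPM. ALB (albumin) had 24 counts in all, APOA1 6, and APOB, TTR, AHSG and APOA2 had 0. The summed levels ranged from 6.97 to 9.97 TPM for the cardiomyocyte list and from 56.7 to 86.3 TPM for the hepatocyte list over the 4 libraries.

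Of 18 fibroblast genes 6 were detected, the highest being S100A4, which this line also expresses as a mesenchymal gene. THY1, PDPN, DPT, MFAP5 and POSTN had 0 counts and FAP had 1. Of 12 endothelial genes 4 were detected, ESAM (a junction molecule) at 82.3, 86.6, 85.4 and 87.8 TPM (85.5 ± 2.35), ROBO4 at 13.6 ± 1.76 TPM, PECAM1 (CD31) at 4.14, 3.92, 7.02 and 6.76 TPM and KDR (VEGFR2) at 1.902 TPM. CDH5 (VE-cadherin) had 2 counts in all, VWF 92 and ERG 0. Of 22 blood cell genes 2 were detected, CD14 at 7.35, 17.5, 22.3 and 20.9 TPM, lowest in replicate 1, and CD8A at 4.87 ± 0.487 TPM. PTPRC (CD45), which marks all white blood cells, had 10 counts in all, and HBB, CD3E and MPO had 0.

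Of 19 neuronal and glial genes 4 were detected, MBP (myelin basic protein) at 23.97 ± 1.51 TPM, GAD1 at 3.29 ± 0.451 TPM (5.11 with the longest transcript), SYT1 and MAP2. STMN2, ELAVL4 and OLIG2 had 0 counts. Of 11 skeletal muscle genes 2 were detected, MYH3 at 3.72 ± 1.01 TPM and DES, with 0 counts of MYOD1 and MYOG. Of 7 melanocyte genes 2 were detected, MITF at 11.3, 11.1, 16.2 and 13.3 TPM and PMEL at 2.21 TPM, with 0 counts of TYR. Of 7 adipocyte genes 4 were detected, namely PPARG, FABP4 (a fatty acid carrier, 6.904, 3.14, 10.6 and 7.999 TPM), PLIN1 (perilipin, 3.55 ± 0.752 TPM) and CIDEC, while ADIPOQ and LEP had 0 counts.

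**Figure D5:**
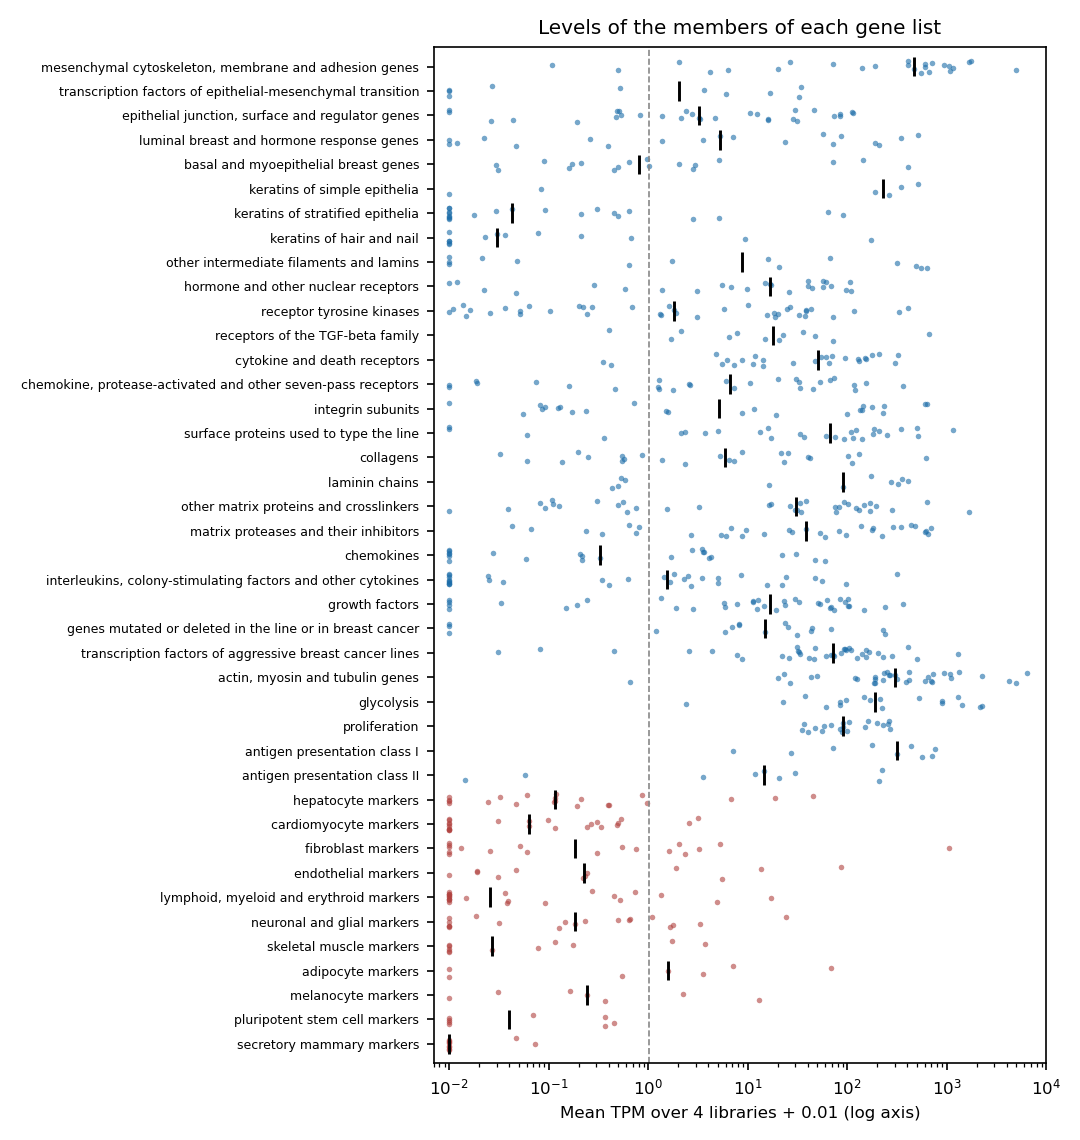
Mean level over the 4 monoculture libraries of every member of each gene list, as TPM + 0.01 on a log axis. Each dot is a gene, black ticks are list medians, blue lists describe the line, red lists mark other cell types, and the dashed line marks 1 TPM. Most red dots lie left of 1 TPM, and the median of the actin, myosin and tubulin list is 302 TPM.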

How the data were processed

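Gene levels were measured by RNA sequencing of poly(A)-selected RNA, per the labels' protocols. The authors deposited raw read counts per Ensembl gene for 12 libraries, of which the 4 monoculture columns were used here. HISAT2 2.2.1 and featureCounts 2.0.6 are named in the submitters' processing notes, as are DESeq2 1.42.0 and build GRCh38. Their settings, the annotation release, and the treatment of strand and of reads that match several genes or places are not given in the sources, and the labels describe both a stranded and an unstranded kit. All 58735 identifiers were found in GENCODE 29, whose symbols, coordinates and exons were used.

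From the counts, CPM were computed over each library's total and TPM with the summed length of all annotated exons of the gene (Python 3.11.15, pandas 2.3.3). The arithmetic was run on counts simulated from the levels of replicate 1 with the same exon lengths. Such a run cannot test the choice of length or how overlapping and multi-mapping reads were counted. A gene was called detected at 1 TPM in every library. No test between groups was made, since 1 group is described. Totals of 35042363 to 42047064 counts put 3 counts at 0.0714 to 0.0856 CPM.

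Genes examined one by one are the 5 label markers, the 20 most abundant nuclear genes, the highest and lowest mitochondrial gene, the 5 highest members of each list, and members that define a triple-negative, mesenchymal-like line. Further members were named for their role with their values known, and some of these genes are not reported here. The members and lists were chosen with earlier results of these data known. Alternatives were other detection thresholds, TMM scaling (edgeR 4.0.16), the longest transcript as gene length, totals without mitochondrial genes, shares of TPM, order by CPM, and each library left out.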

Additional observations from a re-analysis of the deposited data

Results flagged for a closer look

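Of 280 detected genes examined one by one, 10 had 1 library whose distance to its nearest neighbour, as a share of the whole range over the 4 libraries, was above Dixon's 95% critical value for 4 values. Chance gives about 1 in 20 such genes, and 3.57% were found. Of the 10, 6 were in replicate 2.

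In replicate 2 the collagen crosslinker LOX stood at 154.5 TPM against 49.6 to 65.8 TPM in the other 3 libraries. VEGFB stood at 118.3 against 94.9 to 95.9 TPM, LIFR (a chain of the receptor for LIF) at 30.8 against 27.8 to 28.0 TPM, and PKP3 (plakophilin-3) at 90.1 against 81.4 to 82.6 TPM. Replicate 2 was low for PPARG, at 60.2 against 70.1 to 72.0 TPM, and for ERBB2, at 22.9 against 25.6 to 26.1 TPM.

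Replicate 3 was low for COL6A3, at 4.30 against 5.55 to 5.79 TPM, and for RPS18, at 1889 against 2076 to 2113 TPM. Replicate 1 was high for FGFR1, at 28.7 against 25.7 to 25.9 TPM, and replicate 4 for ITGA2, at 189.8 against 174.5 to 175.9 TPM. Only LOX differed by more than 1.5 times between that library and the nearest of the others.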

How the results depend on the processing

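Over the alternatives run, protein-coding genes detected numbered 11769 with TMM-scaled libraries, 11789 with the longest transcript as gene length, 11929 with totals without mitochondrial genes, 12364 at 0.5 TPM, 11880 at 1 CPM, 12810 at 10 counts and 12161 at a mean of 1 TPM, against 11773. List members detected numbered between 474 and 495 under those run on the lists, against 473, and of the list counts the skeletal muscle one moved by over 1.5 times, to 1 of 11 at 1 CPM. The share taken by the 20 most abundant genes, 4.22% of counts, was 5.15% with the longest transcript, 4.45% without mitochondrial counts and 6.26% as a share of TPM. Of those 20 genes, 9 were in the list by CPM and 14 in that by the longest transcript. Leaving out each library in turn gave 11820 to 11862 genes detected, 474 to 477 list members, a share of 4.18 to 4.26% for the 20 genes, of which 19 or 20 were kept, and a mitochondrial share of 4.98 to 5.19%.

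Single levels depended on the gene length, as did ratios between genes, and on whether mitochondrial genes were in the total. Leaving those genes out of the total raised the levels of nuclear genes. Of the 280 detected genes examined one by one, 244 then changed by more than their SD, against 185 with the longest transcript. The ratio of TPM with the longest transcript to TPM with all exons ran from 0.751 to 2.23 over the 280 detected genes examined one by one, with a median of 0.958, and it was over 1.5 for 27. No paired analysis was possible because 1 group is described and no test was made. Genes at 0 counts are limited by depth to the level of 3 counts. A gene whose exons overlap another's is limited by how such reads were counted, which is not given.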

Other observations

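CDKN2A lies within a run of 25 neighbouring protein-coding genes that all had 0 counts in the 4 libraries, chr9:20999515-24545946 on GRCh38, 3.55 Mb in span. The run holds 16 interferon genes, HACD4 (a fatty acid elongation enzyme), KLHL9 (a ubiquitin ligase adaptor), MTAP (of methionine salvage), CDKN2B, DMRTA1, ELAVL2 and IZUMO3. Interferon genes are known to be silent in most unstimulated cells. On one side the nearest gene is FOCAD at 0.9803 ± 0.0861 TPM, then MLLT3 at 5.07 ± 0.94 TPM, and on the other TUSC1 at 24.2 ± 3.58 TPM and CAAP1 at 45.4 ± 2.77 TPM. Over the genome 53 runs of 8 or more neighbouring protein-coding genes had 0 counts, and 7 of them, the run around CDKN2A included, held 25 or more genes. RNA counts do not tell a deleted gene from a silent one. This region was looked at after the counts of CDKN2A were seen.

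The HOX clusters, which carry positional identity, differed in level within these libraries. Of 11 HOXA genes 10 had 0 counts, and HOXA13 stood at 0.618, 0.805, 0.227 and 0.597 TPM. The HOXB cluster held the highest HOX gene, HOXB9 at 14.1, 14.1, 13.2 and 14.03 TPM (13.8 ± 0.398), and summed to 21.5 ± 0.283 TPM. The HOXC cluster summed to 7.04 ± 1.28 TPM, with HOXC6 at 2.28 ± 0.6004 TPM, and the HOXD cluster to 5.57 ± 1.93 TPM, with HOXD1 at 2.69 ± 1.13 TPM. Of the exon bases of HOXD1 58.1% also belong to other genes, and of HOXD4 (2.26 TPM) 80.5%, so the HOXD sum is uncertain. HOXA7 shares 62.5%, and so its 0 is uncertain too.

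Noncoding genes were ordered within the long intergenic (lincRNA), antisense, processed transcript, sense intronic, sense overlapping and bidirectional promoter types only. Of these NORAD, a cytoplasmic RNA that binds Pumilio proteins, was highest at 678, 655, 578 and 648 TPM (639.6 ± 42.9). The antisense gene FGD5-AS1 stood at 208 ± 9.196 TPM. The 2 mitochondrial ribosomal RNA genes were outside this order and took 0.706 ± 0.0809% of counts. SNHG5 stood at 117 ± 6.81 TPM and GAS5 at 108 ± 6.77 TPM, both hosts of small nucleolar RNAs.

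Protein-coding genes whose exons lie almost wholly within those of other genes were seldom detected in this table. Of 475 genes with 90% or more of their exon bases shared on the same strand, 0 were detected and 88.2% had 0 counts. Of 24 genes with 90% or more shared on the other strand and under 5% on the same, 1 was detected. Of 11089 genes with no shared base, 54.6% were detected and 22.7% had 0 counts. ALDOA (aldolase A, 2.32, 2.94, 1.97 and 2.38 TPM) and MIF (1.76, 0.704, 0 and 0 TPM) share 53.5% and 62.0% of their exon bases. ALDOA was the lowest of the 18 glycolysis genes, and the next, LDHB, stood at 22.4 ± 2.11 TPM. The part of the counting method in these levels was not tested.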
